A study of Sus scrofa with 36 samples.

Results

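Interferons are signalling proteins that cells release on infection or inflammation, and they switch on a broad set of antiviral and immune genes through receptors, JAK kinases and STAT factors. Many of the same cells show peptides to T cells on class I molecules, which almost all nucleated cells carry, and on class II molecules, which belong mainly to macrophages, dendritic cells and B cells. In the pig these molecules are called SLA, for swine leukocyte antigen. In mammary tissue such genes are read from epithelium, stroma and resident leukocytes together.

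Here the interferon-induced and antigen presentation genes were followed in the mammary gland of 36 female peripubertal Yucatan miniature swine aged 5 months, with 1 Affymetrix porcine array per pig. The genes were chosen by their symbol alone: names starting with IFI, ISG, OAS, GBP or SLA-, interferon regulatory factors, MX1, MX2, TAP1, TAP2, TAPBP, B2M, CD74, CIITA and the immunoproteasome subunits PSMB8, PSMB9 and PSMB10. This gave 41 genes of 6360 genes measured under a single symbol. Of these, 13 were interferon effectors, 6 were regulatory factors, 10 belonged to class I, 10 to class II, and IRF2BP1 and ISG20L2 matched by name only. The 13 effectors and 6 regulatory factors are called the 19 interferon genes below. ISG12(A) was placed with the effectors after its name was seen.

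The 36 animals form 9 groups of 4. The sham group kept its ovaries and was given saline over 13 days. The remaining 32 animals had their ovaries removed and all were first treated for 8 days with bromocriptine, which acts on dopamine receptors and so lowers prolactin. For a further 5 days they were given bromocriptine alone (B), with estrogen (BE), with progesterone (BP) or with both (BEP), or haloperidol, which blocks those receptors and so raises prolactin, alone (H), with estrogen (HE), with progesterone (HP) or with both (HEP). BrdU, a label for dividing cells, was injected 24 hours before the end. The sham group differs from B in its ovaries and in bromocriptine, so those 2 factors cannot be told apart there. Haloperidol animals had received bromocriptine first, and no group without ovaries went without both drugs. Each haloperidol comparison therefore sets haloperidol after bromocriptine against continued bromocriptine. Haloperidol and the end of bromocriptine cannot be told apart there. Below, without haloperidol means with bromocriptine.

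Values are probe set levels that the authors normalized with RMA, read here as log2. Each change is a log2 difference ± SE from limma fitted to all arrays, and a gene is called when its p-value, adjusted by Benjamini and Hochberg over 20792 probe sets, is under 0.05. Array medians lay between 7.83 and 7.91, and arrays have no read depth, so the number of animals limits the precision. Of the epithelial markers KRT8, KRT18, KRT19, EPCAM and CDH1, the lowest mean over the animals was 10.94, for KRT18, well above the lower quartile of any array (5.90 to 6.09). Levels of different genes are not compared, since probe sets differ in brightness.

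A few animals stood apart. The skeletal muscle marker level of B A was 12.92, against 4.42 to 6.08 in B B, B C and B D. BP A had a muscle level of 9.98 (other BP animals 4.39 to 6.78) and the highest epithelial marker level of its group, 11.53. B B had an epithelial level of 11.07, against 7.41 to 9.18 in its group mates. The epithelial level averages milk protein genes such as CSN2 together with general epithelial markers. Muscle levels also stood apart in H C (11.36, other H animals 6.45 to 7.41) and in HP A and HP C (9.14 and 9.49, against 4.29 and 6.65). BP A also had the lowest mean level of the 19 interferon genes, 8.28, against 8.88 to 8.91 in BP B, BP C and BP D. Results that changed most without 1 of these 6 animals are given both ways. A bulk sample cannot tell fewer cells of a type from less RNA per cell.

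Over the 9 groups the mean levels of the interferon, class I and class II genes were all highest in HP. They were lowest in BEP for interferon genes and in BE for class I and class II. Differences between the classes were not tested. The mean level of the 19 interferon genes was 9.18 ± 0.17 (SD, n = 4) in HP, 8.96 ± 0.28 in H and 8.94 ± 0.25 in sham. It was 8.65 ± 0.32 in BEP, 8.68 ± 0.07 in HEP and 8.69 ± 0.11 in BE. HP held the highest group mean for 9 of the 19 interferon genes, and HEP held the lowest for 6. Groups next to each other in the order of means overlapped. The HP animals (9.01 to 9.40) lay above every animal of BE, BP and HEP.

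**Figure D1:**
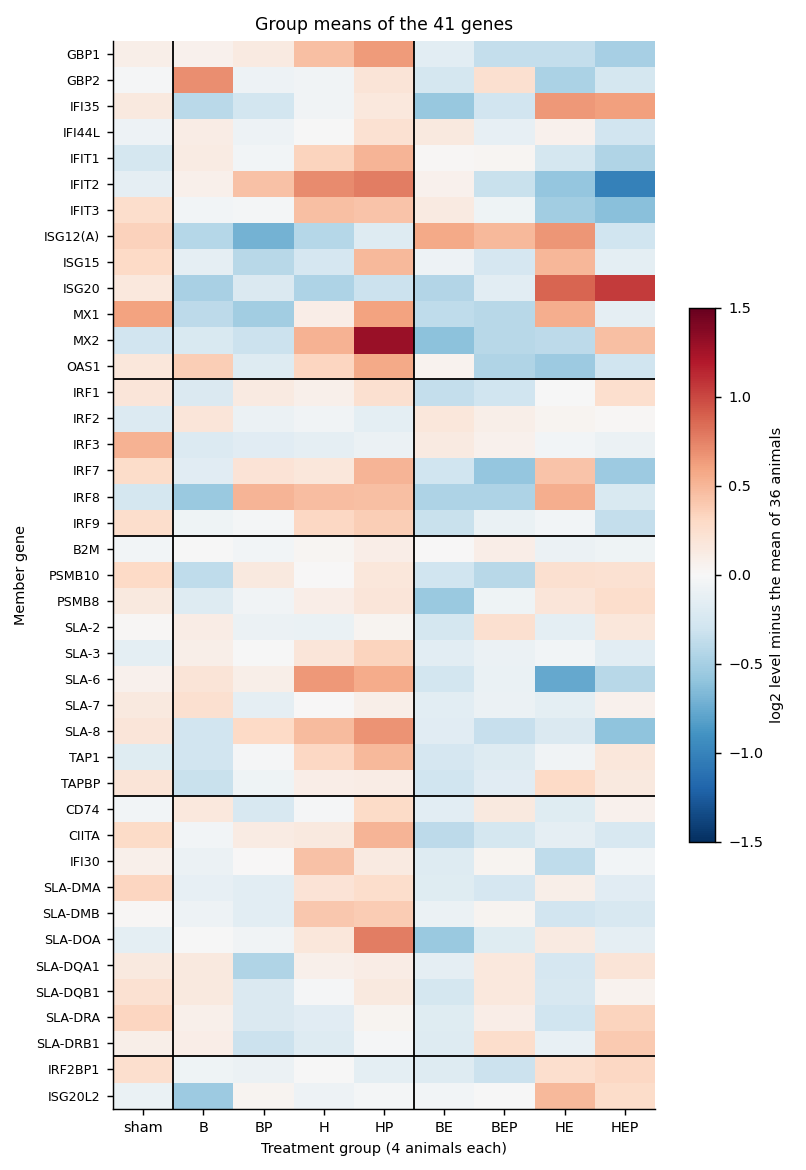
Group mean of each of the 41 genes minus its mean over the 36 animals, as log2, with the 9 treatment groups in columns (4 animals each) and genes in rows, separated by lines into effectors, regulatory factors, class I, class II and names only. Columns 2 to 5 had no estrogen and columns 6 to 9 had it. Red is higher and blue lower, with colours ending at 1.5; IFIT2 turns from red to blue between HP and HEP, while ISG20 is red in HE and HEP.

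For class I the mean level was 10.57 ± 0.21 in HP and 10.48 ± 0.23 in H, against 10.06 ± 0.02 in BE. HP held the highest mean for 4 of the 10 class I genes. For class II the mean level was 10.39 ± 0.23 in HP and 9.89 ± 0.09 in BE, with 9.96 ± 0.47 in BP. BE, BP and HE each held the lowest mean for 3 of the 10 class II genes. The class II mean of BP ran from 9.43, in BP A, to 10.47, in BP D, the widest spread of the 9 groups in this class.

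**Figure D2:**
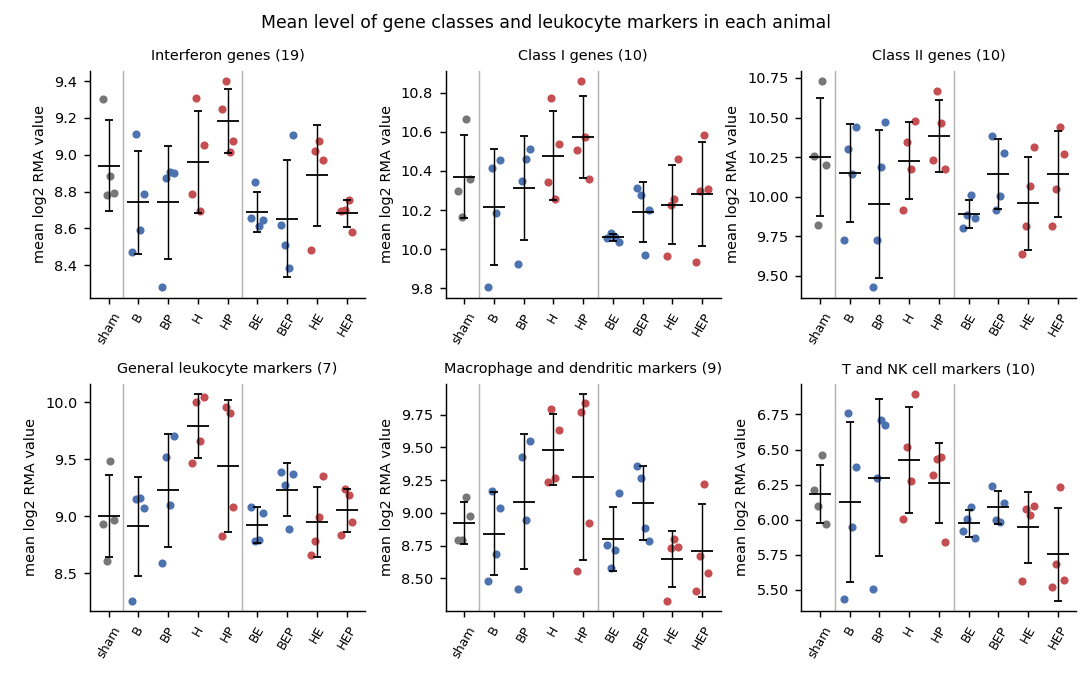
Mean log2 RMA level in each animal of the 19 interferon, 10 class I and 10 class II genes, and of 7 general leukocyte, 9 macrophage and dendritic cell, and 10 T and NK cell markers. Dots are animals (grey sham, blue bromocriptine, red haloperidol), bars are group mean ± SD (n = 4), groups right of the second line received estrogen. Leukocyte and macrophage markers are highest in H and HP, and the HP animals lie above every HEP animal for interferon genes.

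Apart from treatment, animals of one group also differed, and here genes tended to move together, both within classes and between class I and class II. Each gene's value was set against its group mean in the 36 animals and Pearson's r was taken between genes, as a description with no p. The median r was 0.50 over the 45 pairs of class II genes, and every pair was positive (0.03 to 0.84). It was 0.40 over the 45 pairs of class I genes (-0.07 to 0.70) and 0.30 over the 78 pairs of effectors (-0.46 to 0.72). Of the effector pairs 84.6% were positive. The median r was 0.44 between class I and class II genes, where all genes gave a median of 0.005. Between effectors and class II genes it was 0.15. The pairs with the highest r were SLA-DQA1 with SLA-DRB1 (0.84) and IFI30, a lysosomal thiol reductase, with SLA-6 (0.81), a pair named after its value was seen. B2M varied least between animals of a group (within-group SD of 0.09) and MX2 most (0.69). The mean of the B2M probe set, 12.85, was near the highest value on any array, 13.74. Whether this narrowed its spread was not tested. All of these values share the animals and the arrays, so pairs are not independent. The animals that stood apart were kept in them.

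The effect of losing the ovaries together with bromocriptine was read from B against sham. Of the 41 genes 0 were called by limma, where 4.18% of all probe sets were called, and 7 had an unadjusted p under 0.05. MX1, an antiviral GTPase of the cytoplasm, was at 9.15 in B and 10.14 in sham (-0.99 ± 0.40, adjusted p = 0.15). In sham it was at 10.98, 9.44, 10.23 and 9.91 in animals A to D, and in B at 8.63, 9.69, 8.75 and 9.51. The MX1 values of B and sham overlap. The class II chaperone gene SLA-DMA was at 10.72, 11.03, 11.04 and 10.91 in sham and at 10.42, 10.64, 10.28 and 10.58 in B, without overlap (-0.45 ± 0.16, adjusted p = 0.117). IRF3, an interferon regulatory factor that acts after viral sensing, also did not overlap (-0.72 ± 0.28, adjusted p = 0.140), and was named after its values were seen. The share of all probe sets without overlap between B and sham was not counted. Whether such separation is more frequent in these genes than over the array is therefore not known. GBP2, a guanylate-binding GTPase, was at 8.63 in B and 7.92 in sham (0.71 ± 0.26, adjusted p = 0.109). Of the other pathway genes TNFSF10, a death ligand that interferon induces, rose by 1.88 ± 0.52 (adjusted p = 0.0353), and the signalling, sensor and loading lists had 0 of 12, 0 of 8 and 0 of 18 genes called by limma, with 2, 1 and 2 at an unadjusted p under 0.05. General leukocyte, T and NK cell and macrophage markers had 0 called of 7, 10 and 9, with 1, 1 and 0 at an unadjusted p under 0.05.

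The average effect of estrogen sets BE, BEP, HE and HEP (16 animals) against B, BP, H and HP (16 animals). Of the 41 genes 11 were called (26.8%), 2 higher and 9 lower, where 35.1% of all probe sets passed (17.5% higher, 17.6% lower), so the share was not above that of the array. By class, 8 of 19 interferon genes were called (2 higher, 6 lower), 2 of 10 class I genes lower and 1 of 10 class II genes lower. The median change was -0.36 in the interferon genes, -0.09 in class I and -0.13 in class II, against 0.01 over all probe sets. The difference between the classes was not tested.

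Among the antiviral effectors, IFIT2, which binds RNA in infected cells and limits translation, fell. With estrogen its level ran from 6.43 to 8.38 with a median of 7.54, and without it from 7.14 to 9.48 with a median of 8.55. The arms overlap, and the lowest animal without estrogen was BP A. In all, 11 animals without estrogen stood above every animal with it. The change was -0.96 ± 0.18 (adjusted p = 0.000107), and all 16 animals given estrogen lay below the mean of the others.

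GBP1, a guanylate-binding GTPase that interferon gamma induces, fell too. It ran from 9.05 to 9.79 (median 9.43) with estrogen and from 8.65, again in BP A, to 11.33 (median 10.12) without it. In 11 animals without estrogen it was above every animal with estrogen, and the change was -0.66 ± 0.15 (adjusted p = 0.00135). OAS1, which makes the messenger that activates the RNase of the antiviral response, also fell (-0.58 ± 0.18, adjusted p = 0.0113), as did GBP2 (-0.38 ± 0.13, adjusted p = 0.0217). IFIT3 (-0.47 ± 0.19, adjusted p = 0.052) and MX2 (-0.56 ± 0.23, adjusted p = 0.057) did not pass.

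Among the regulatory factors, IRF7, which drives type I interferon genes, was lower with estrogen (-0.43 ± 0.14, adjusted p = 0.0191). IRF9, the DNA-binding part of the complex that acts after type I interferon, was also lower (-0.36 ± 0.11, adjusted p = 0.00942), with 14 of 16 animals below the mean of the others. IRF1 (-0.17 ± 0.13, adjusted p = 0.342) and IRF8 (-0.37 ± 0.16, adjusted p = 0.063) did not pass.

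Both interferon genes that rose with estrogen were effectors. ISG12(A), a small protein of organelle membranes that interferon induces, was at 9.73 to 11.91 (median 11.07) with estrogen and at 9.52 to 11.22 (median 10.11) without. Its highest animal without estrogen was H B, and 7 animals given estrogen stood above all of the others. The change was 0.79 ± 0.19 (adjusted p = 0.00165). ISG20, an exonuclease that degrades single-stranded RNA, rose by 0.70 ± 0.20 (adjusted p = 0.00728). Its mean over the 36 animals, 5.24, was lower than the lower quartile of each array, and with no measure of detection its fold is uncertain in size.

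**Figure D3:**
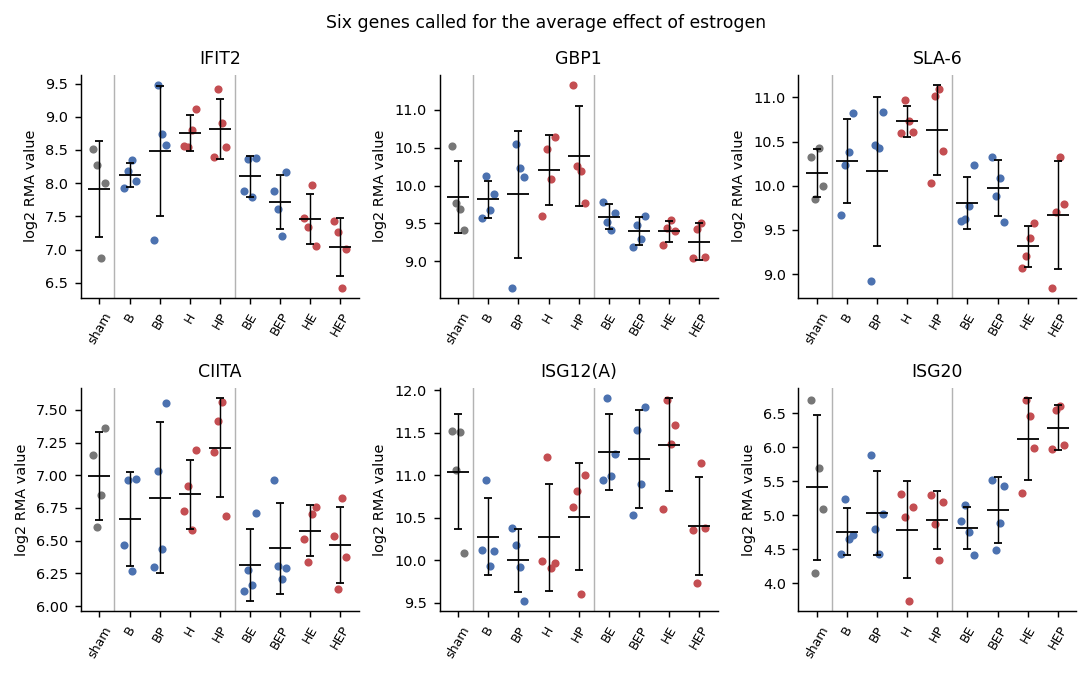
log2 RMA value of 6 genes called for the average effect of estrogen, with each animal as a dot (grey sham, blue bromocriptine, red haloperidol) and group mean ± SD (n = 4) as bars; groups right of the second line received estrogen. IFIT2, GBP1, SLA-6 and CIITA are lower with estrogen and ISG12(A) and ISG20 higher, and ISG20 stands at 5.32 to 6.70 in HE and HEP.

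In class I, SLA-6 and SLA-8, both non-classical heavy chain genes of the pig, fell with estrogen. SLA-6 was at 8.85 to 10.33 (median 9.67) with estrogen and at 8.92 to 11.09 (median 10.53) without. BP A was its lowest animal without estrogen, and 12 animals without estrogen lay above every animal with it (-0.76 ± 0.16, adjusted p = 0.000483). SLA-8 fell by 0.63 ± 0.17 on the log2 scale (adjusted p = 0.00437). The classical heavy chain genes SLA-2 (0.01 ± 0.14, adjusted p = 0.958) and SLA-3 (-0.26 ± 0.11, adjusted p = 0.069) did not pass. Neither did B2M, the light chain of every class I molecule (-0.03 ± 0.06, adjusted p = 0.701), or TAP1, which pumps peptides into the endoplasmic reticulum (-0.20 ± 0.13, adjusted p = 0.238). SLA heavy chain genes are near copies of each other, and whether a probe set reads only its own gene was not tested.

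In class II, CIITA, the factor that switches on class II genes, fell by 0.44 ± 0.12 on the log2 scale (adjusted p = 0.00685). It was at 6.11 to 6.96 (median 6.36) with estrogen and at 6.26 to 7.56 (median 6.94) without, and 8 animals without estrogen lay above every animal with it. Several class II genes that CIITA is known to control did not pass: SLA-DRA (0.06 ± 0.11, adjusted p = 0.712), SLA-DRB1 (0.20 ± 0.13, adjusted p = 0.249), SLA-DQA1 (0.02 ± 0.15, adjusted p = 0.936), SLA-DQB1 (-0.09 ± 0.15, adjusted p = 0.663) and CD74, the invariant chain (-0.08 ± 0.12, adjusted p = 0.650). SLA-DMA, SLA-DMB and SLA-DOA did not pass either. Without BP A, limma called SLA-DMA (-0.22, adjusted p = 0.0204) and SLA-DMB (-0.41, adjusted p = 0.0311) lower. With array weights SLA-DOA was also called lower (-0.68, adjusted p = 0.00843). For SLA-DMA and SLA-DRB1, a further probe set was called for estrogen where the one used here was not.

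The 11 calls for the average effect of estrogen held when any 1 of the 36 arrays was left out. Without BP A, 19 genes were called (3 higher and 16 lower), where 41.7% of all probe sets then were, and the calls that it added were IFIT1, IFIT3, MX2, SLA-3 and 3 class II genes, all lower, and IFI35, higher. Without BP A, B A and B B together 17 were called, where 40.9% of all probe sets were. Without H C 13 were called, and the share of all probe sets in that fit is not given here. Of 7 general leukocyte markers 3 fell with estrogen, of 10 T and NK cell markers 3 fell and of 9 macrophage and dendritic cell markers 3 fell, and 0 of these rose. The 1 B and plasma cell marker measured was not called (0.33), and of 3 lymph node markers 1 rose and 1 fell. The mean level of the leukocyte markers was 8.66 to 9.39 with estrogen and 8.26 to 10.04 without, and of the macrophage markers 8.33 to 9.36 and 8.42 to 9.84. The T cell markers CD2, CD3D, CD3G and LCK had means under each array's lower quartile, as did the macrophage and dendritic markers ITGAM and XCR1. Markers of endothelium fell in 5 of 8, of adipocytes in 4 of 6 and of skeletal muscle in 8 of 8, with median changes of -0.60, -1.14 and -2.89. The muscle level was 3.97 to 5.02 with estrogen and 4.29 to 12.92 without. The 6 animals that stood apart were all in groups without estrogen, so tissue make-up was not balanced between the arms. The muscle markers MYH2, MYL1, CKM and MYOZ1 also had means under each array's lower quartile. Of 6 fibroblast markers 3 rose and 0 fell, and of 11 epithelial markers CDH1 rose and 0 fell. The part of all these markers in the changes of the interferon and antigen presentation genes was not tested.

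Other genes of the pathway moved in both directions with estrogen. Of 12 measured receptor and signalling genes 3 rose and 2 fell. SOCS1, which blocks JAK kinases, rose by 0.90 ± 0.16 and IFNAR1, a chain of the type I interferon receptor, by 0.69 ± 0.16. JAK1, a kinase that binds to receptors, fell by 0.36 ± 0.08. Of 8 measured nucleic acid sensors and adaptors TLR4, which senses bacterial lipopolysaccharide, fell by 0.91 ± 0.16 and TLR8, an RNA sensor, by 0.64 ± 0.22, though the mean of TLR8 was under each array's lower quartile. Of 14 other interferon-induced genes TNFSF10 fell by 0.93 ± 0.26 and WARS, the tryptophan tRNA synthetase, by 0.68 ± 0.13. Of 18 genes of loading, trafficking and control 3 rose and 3 fell. Among them PDIA3, which helps class I molecules fold, rose by 0.49 ± 0.09 and RFXANK, a part of the factor that binds class II promoters, by 0.75 ± 0.16.

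The average effect of haloperidol sets the 4 haloperidol groups against the 4 bromocriptine groups (16 animals each), and here the genes called were all higher. Of the 41 genes 8 were called higher (19.5%) and 0 lower, where 6.98% of all probe sets passed (3.85% higher, 3.13% lower). GBP2 alone was lower at an unadjusted p under 0.05 (-0.30 ± 0.13, adjusted p = 0.155). By class these were 4 of 19 interferon genes, 3 of 10 class I genes and 1 of 10 class II genes. The median change was 0.14 in the interferon genes, 0.17 in class I and 0.10 in class II, against -0.01 over all probe sets.

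Of the effectors, IFI35, an interferon-induced leucine zipper protein, had the lowest adjusted p. It was at 9.14 to 10.58 (median 9.99) with haloperidol and at 8.25 to 10.15 (median 9.34) without, and the highest animal without haloperidol was BP A. In 15 of 16 animals given haloperidol it lay above the mean of the others, and the change was 0.73 ± 0.14 (adjusted p = 0.00101). MX2, an antiviral GTPase of the nuclear pore, rose by 0.86 ± 0.23 (adjusted p = 0.0199). Its values ran from 7.55 in HE A to 10.76 in HP B with haloperidol and from 6.85 to 9.61 without, and 3 of the animals given haloperidol lay above all of the others. The other probe set of MX2 was not called higher with haloperidol. MX1 rose by 0.70 ± 0.20 (adjusted p = 0.0271), a call that was lost without H B (adjusted p = 0.0512).

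ISG15, a ubiquitin-like modifier (0.36 ± 0.17, adjusted p = 0.219), and the members IFIT1 (0.00 ± 0.17, adjusted p = 0.998), IFIT3 (-0.07 ± 0.19, adjusted p = 0.878) and IFI44L (-0.02 ± 0.14, adjusted p = 0.964) did not pass. Nor did OAS1 (0.06 ± 0.18, adjusted p = 0.876) or GBP1 (0.14 ± 0.15, adjusted p = 0.636). Of the regulatory factors IRF8, a factor of myeloid cells, rose by 0.55 ± 0.16 (adjusted p = 0.0283). It was at 7.45 to 9.23 (median 8.44) with haloperidol and at 6.75 to 9.10 (median 7.76) without, and the call was lost without BP C, HP B or HP C, and without B A, B B and BP A together (adjusted p = 0.056). IRF1 (0.33 ± 0.13, adjusted p = 0.130) and IRF7 (0.35 ± 0.14, adjusted p = 0.131) did not pass.

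**Figure D4:**
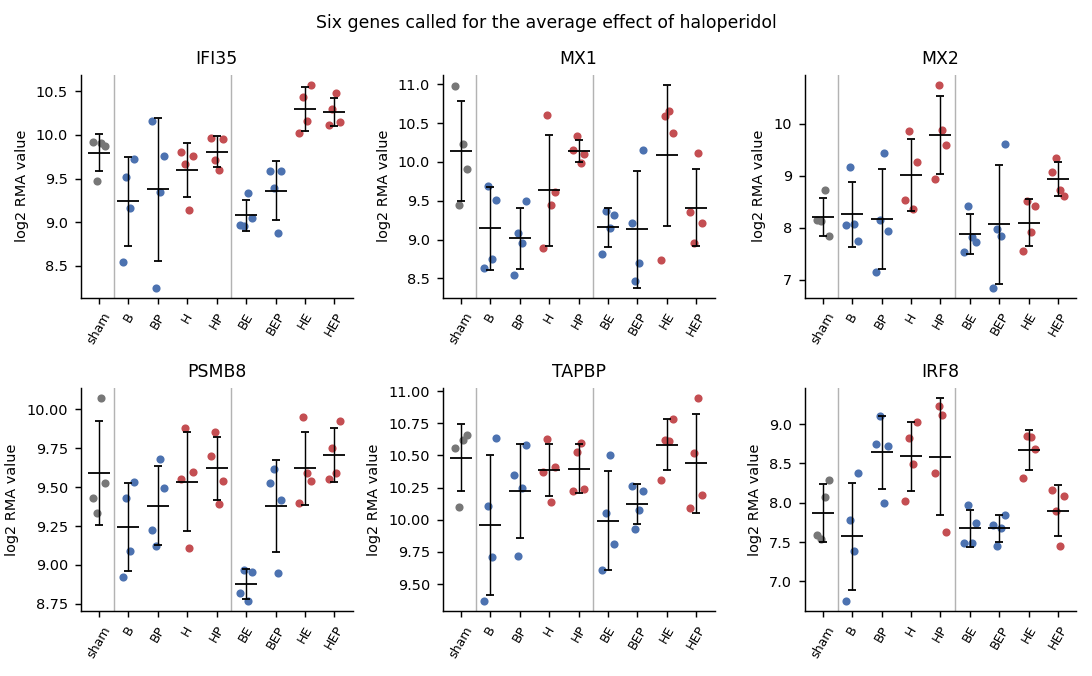
log2 RMA value of 6 genes called for the average effect of haloperidol, with each animal as a dot (grey sham, blue bromocriptine, red haloperidol) and group mean ± SD (n = 4) as bars; groups right of the second line received estrogen. IFI35 is at 10.02 to 10.58 in HE and HEP, above every BE and BEP animal, and MX2 is highest in HP.

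In class I, the immunoproteasome subunit PSMB8, which cuts proteins into peptides for class I, rose by 0.40 ± 0.10 (adjusted p = 0.00899). It was at 9.11 to 9.95 (median 9.59) with haloperidol and at 8.77 to 9.68 (median 9.17) without. In 15 of 16 animals given haloperidol it lay above the mean of the others. A second subunit, PSMB10, rose by 0.40 ± 0.12 (adjusted p = 0.0371), and TAPBP, which holds class I molecules for peptide loading, by 0.38 ± 0.12 (adjusted p = 0.0441). TAPBP lay above the mean of the others in all 16 animals given haloperidol, from 10.09 to 10.95, against 9.37 to 10.64. TAP1 was close to the threshold (0.41 ± 0.13, adjusted p = 0.0534).

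SLA-2 (-0.01 ± 0.14, adjusted p = 0.977), SLA-3 (0.12 ± 0.11, adjusted p = 0.559), SLA-6 (0.03 ± 0.16, adjusted p = 0.937), SLA-8 (0.21 ± 0.17, adjusted p = 0.488) and B2M (-0.02 ± 0.06, adjusted p = 0.896) did not pass. Of 18 genes of loading, trafficking and control 2 rose and 0 fell, which were PSME1 (0.32 ± 0.08, adjusted p = 0.0116) and PSME2 (0.44 ± 0.10, adjusted p = 0.0043), subunits of the proteasome activator. In class II, SLA-DMA, which swaps peptides on class II, rose by 0.28 ± 0.08 (adjusted p = 0.0341), while SLA-DMB (0.13 ± 0.18, adjusted p = 0.718) and CIITA (0.21 ± 0.12, adjusted p = 0.317) did not pass.

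Several of these calls were near the threshold. The call of PSMB10 was lost in 14 of the 36 fits that left out 1 array, that of TAPBP in 21 and that of SLA-DMA in 11, and SLA-DMA was also lost with its other probe set (0.13, adjusted p = 0.705). TAPBP was also lost without B A, B B and BP A together and with only the groups of the comparison fitted (highest adjusted p = 0.0791). SLA-DMA was among the calls lost without H C (adjusted p = 0.0569). The number of genes called ran from 4 without HP B or HP C to 11 without HE A, and was 9 without BP A and 8 without H C. It was 7 without B A, B B and BP A together, where IRF8 and TAPBP were lost and ISG20 was added. The share of all probe sets called in these fits is not given here, so the counts are not set against the array. Of 12 signalling genes IFNAR2, the other chain of the type I receptor, rose by 0.36 ± 0.10 and SOCS1 by 0.61 ± 0.16. JAK2, another kinase that binds to receptors, fell by 0.57 ± 0.17. PML, a nuclear body protein, rose by 0.66 ± 0.14, as the 1 call among 14 other interferon-induced genes. Of the leukocyte, T and NK cell and macrophage markers 0 of 7, 0 of 10 and 0 of 9 were called by limma, with 3, 1 and 0 at an unadjusted p under 0.05. The lists overlapped between the arms, with a macrophage level of 8.33 to 9.84 with haloperidol and 8.42 to 9.55 without. Of 11 mammary epithelial markers 5 rose, which are CLDN3 and the milk protein genes CSN2, CSN3, LALBA and WAP. KRT8, KRT18, KRT19, EPCAM and CDH1 were not called. The mean level of the 11 markers, which includes the milk protein genes, was 9.67 to 11.98 with haloperidol and 7.41 to 11.53 without. The part of these markers in these results was not tested.

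**Figure D5:**
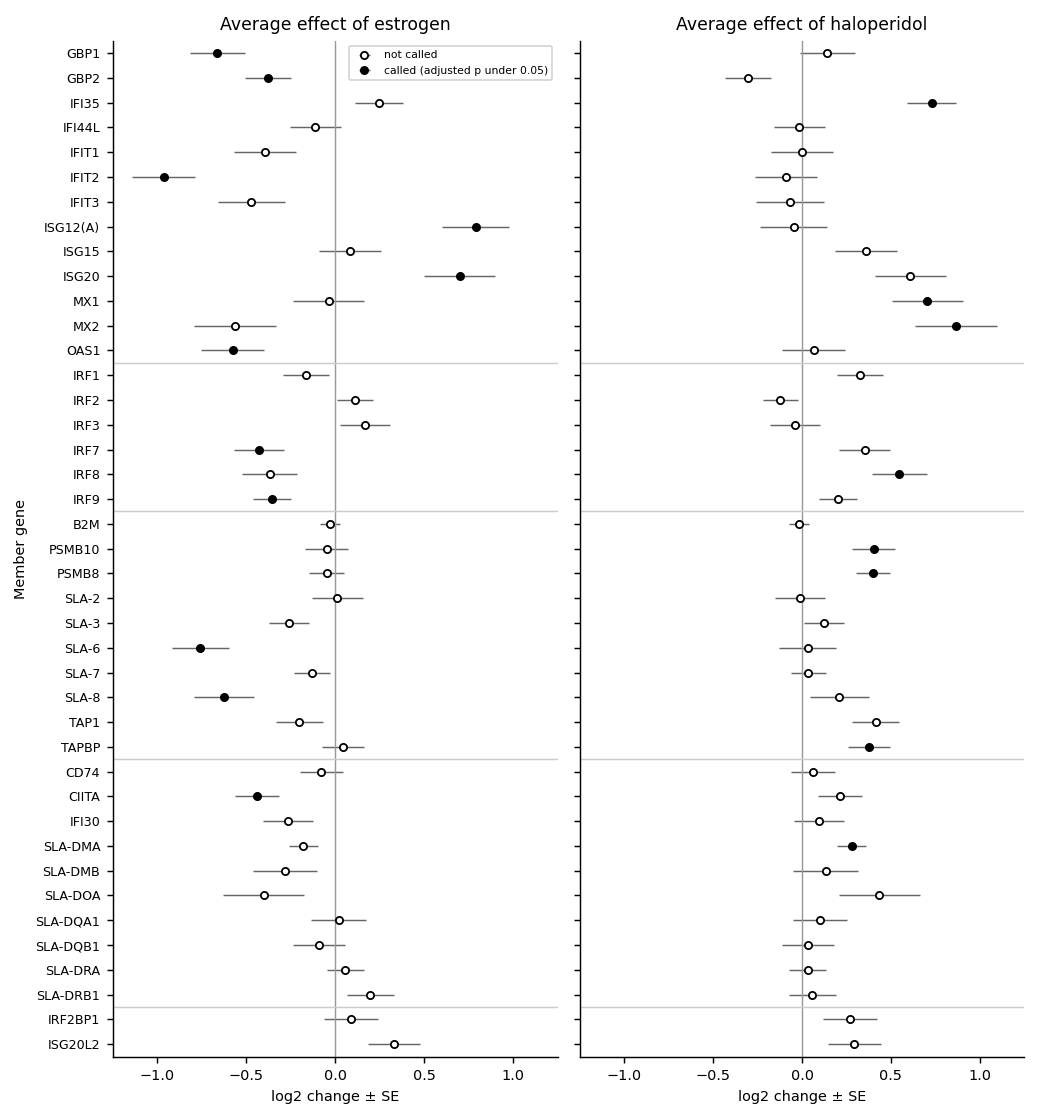
Change of each of the 41 genes with estrogen (left) and haloperidol (right), as log2 difference ± SE from limma (16 animals against 16); filled points have an adjusted p under 0.05. With estrogen the 11 called genes lie on both sides of 0, and with haloperidol the 8 called genes all lie above it.

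Whether haloperidol changed the effect of estrogen was tested as an interaction. Of the 41 genes 2 were called, 1 in each direction, where 7.48% of all probe sets passed (3.87% higher, 3.62% lower). The estrogen effect on IFIT2 was lower with haloperidol (-1.14 ± 0.35, adjusted p = 0.0437), and that on ISG20 was higher (1.30 ± 0.40, adjusted p = 0.0439). Both calls were lost without BP A, and both without H C (adjusted p = 0.0597 for IFIT2 and 0.0759 for ISG20). They were also lost without B B and without HP C, and the call of IFIT2 was lost with the most variable of its 3 probe sets. Of the 36 fits that left out 1 array, 17 lost the call of IFIT2 and 19 that of ISG20. IFIT3 had an interaction of the same sign as IFIT2 and did not pass (-1.09 ± 0.38, adjusted p = 0.0719), and neither did SLA-6 (-0.86 ± 0.32, adjusted p = 0.0882). Of the pathway genes JAK2 (-1.35 ± 0.34) and TLR8 (-1.47 ± 0.44) were called lower, and so was CTSH, a lysosomal protease (-0.84 ± 0.21), while RFXANK was called higher (1.02 ± 0.32). Among macrophage markers MRC1, C1QA and C1QC, 3 of 9, were called lower (-0.85, -1.10 and -0.89), and 0 were called higher. Of 6 adipocyte markers ADIPOQ, LIPE and PNPLA2 were called lower, of 8 endothelial markers CLDN5 was called lower, and of 11 epithelial markers CLDN3 was called higher. In haloperidol animals the mean macrophage level was 8.56 to 9.84 without estrogen and 8.33 to 9.22 with it. The part of these markers in the interaction was not tested.

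The 4 backgrounds show the pattern, with the same animals serving as controls of several contrasts. IFIT2 changed by -0.02 from B to BE and by -0.77 from BP to BEP, and neither passed. Without BP A, in a fit chosen after seeing the data, the change from BP to BEP was -1.21 ± 0.32 (adjusted p = 0.015). It fell by 1.29 ± 0.35 from H to HE (adjusted p = 0.00993) and by 1.78 ± 0.35 from HP to HEP (adjusted p = 0.00101). In HP it was at 8.39, 9.41, 8.90 and 8.54 in animals A to D, and in HEP at 7.43, 7.27, 6.43 and 7.02, so no HEP animal reached the HP range. ISG20 differed by 0.05 in both bromocriptine backgrounds, and by 0.34 ± 0.42 from BP to BEP without BP A (adjusted p = 0.650). It rose by 1.33 ± 0.40 from H to HE (adjusted p = 0.0184) and by 1.37 ± 0.40 from HP to HEP (adjusted p = 0.0195). The first call was lost without H C (0.98 ± 0.41, adjusted p = 0.102) and the second without HP C (1.17 ± 0.43, adjusted p = 0.0839). In HE it was at 5.32, 6.70, 6.45 and 5.99, and in H at 5.32, 4.97, 3.74 and 5.12. HE A lay just above H A, and the other HE animals lay clearly above all of H.

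In single backgrounds the array differed widely in calls, since 19.9% of all probe sets were called in HE against H, 16.5% in HEP against HP, 3.78% in BE against B and 0.784% in BEP against BP. The 41 genes had 5 calls in HE against H, 8 in HEP against HP, 1 in BE against B and 0 in BEP against BP, where limma gave 6 with an unadjusted p under 0.05. Without H C, HE against H had 2 calls, where 14.3% of all probe sets were called. Without HP C, HEP against HP had 5, where 8.13% of all probe sets were called. Without BP A these contrasts had 9 and 11 calls, where 23.2% and 20.9% of all probe sets were called. In that fit BEP against BP had 4, where 11.3% of all probe sets were called. Of the 8 calls in HEP against HP, 7 were lower, where 7.7% of all probe sets were called lower: GBP1, IFIT2, IRF7, IRF9, SLA-6, SLA-8 and CIITA. IRF7 was at 8.50, 8.43, 8.49 and 8.10 in HP and at 7.58, 7.01, 7.41 and 7.30 in HEP (-1.05 ± 0.28, adjusted p = 0.0115). No HEP animal reached the HP range. In the other backgrounds IRF7 differed by -0.13 ± 0.28 from B to BE, -0.78 ± 0.28 from BP to BEP and 0.25 ± 0.28 from H to HE, and none of these passed. SLA-6 fell by 1.41 ± 0.32 from H to HE (adjusted p = 0.0024), and its call from HP to HEP was lost without HP C (-0.81 ± 0.34, adjusted p = 0.134). GBP2 was lower in BE than in B (-0.96 ± 0.26, adjusted p = 0.0272), a call that was lost without B B (-0.76 ± 0.26, adjusted p = 0.122).

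For haloperidol, 10.5% of all probe sets were called in HE against BE (5.46% higher), and 4 of the 41 genes were called, all higher. IFI35 was at 8.97, 8.96, 9.33 and 9.05 in BE and at 10.02, 10.44, 10.16 and 10.58 in HE, without overlap (1.22 ± 0.27, adjusted p = 0.00389). PSMB8 was at 8.82, 8.97, 8.77 and 8.96 in BE and at 9.40, 9.95, 9.59 and 9.54 in HE (0.74 ± 0.19, adjusted p = 0.0122). ISG20 and IRF8 were the other calls. In H against B 0 of 41 genes were called by limma, with 5 at an unadjusted p under 0.05 and 0.0337% of all probe sets called. MX2 was at 9.79 in HP and 8.17 in BP, and its change of 1.62 ± 0.46 in that background did not pass (adjusted p = 0.719), where 0% of all probe sets were called and 6 of the 41 genes had an unadjusted p under 0.05.

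Progesterone gave little to report. For its average effect 0 of the 41 genes were called by limma, with 1 at an unadjusted p under 0.05, where 0.0914% of all probe sets were called. The changes ran from -0.27 to 0.43, with a median of -0.04 in the interferon genes, 0.07 in class I and 0.12 in class II. The interaction of estrogen with progesterone called 0 of 41 (6 at an unadjusted p under 0.05; 0.25% of all probe sets called), and that of progesterone with haloperidol called 0 of 41 (2 at an unadjusted p under 0.05; 0% called). The estrogen effect on IRF7 differed by -0.98 ± 0.28 with progesterone (adjusted p = 0.162), and that on SLA-DRA by 0.50 ± 0.21 (adjusted p = 0.396). The class II chains SLA-DRB1 and SLA-DQA1 were similar in sign (0.60 ± 0.26, adjusted p = 0.415, and 0.65 ± 0.31, adjusted p = 0.467). In BP, which enters this interaction, BP B was low for both. It was at 10.68 for SLA-DRB1 (other BP animals 11.65 to 11.98) and at 9.61 for SLA-DQA1 (10.97 to 11.65). In the groups given estrogen, SLA-DRB1 had means of 12.24 in HEP, 12.10 in BEP, 11.74 in HE and 11.65 in BE. IRF8 had the lowest interaction of progesterone with haloperidol, -0.92 ± 0.31 (adjusted p = 0.918).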

How the data were processed

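Mammary RNA of 36 pigs was measured with 1 porcine Affymetrix array each. The deposited values are probe set levels from RMA, per the submitters' processing notes. They were used as deposited and read as log2 from their range, since neither the RMA version nor the base of the logarithm is stated in the labels. Raw intensities and sequence were not analysed here, and the planned promoter search was not run.

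Groups came from the treatment labels. A gene was represented by the single-symbol probe set with the highest mean, and of 20792 probe sets 9149 had 1 symbol, 178 several and 11465 none. limma 3.58.1 in R 4.3.3 (statmod 1.5.0) fitted 1 mean per group to all arrays (27 residual and 4.16 prior degrees of freedom). P-values are two-sided. The 7 comparisons and 12 contrasts within backgrounds were adjusted one by one. The code was tested on simulated data.

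The members, lists and tests were chosen with earlier results of these data known. Named genes were the called members, at most 6 per class and comparison, a fixed list of well-known members, and called pathway genes. Alternatives were 12 settings and each array left out, with 6 arrays also left out of the contrasts within backgrounds, chosen after seeing the data. Figures used matplotlib 3.10.9.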

Additional observations from a re-analysis of the deposited data

Results flagged for a closer look

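Among 198 sets of 4 animals tested for an animal far from the other 3 (the 19 genes called in any comparison and the class levels, in each group), 5 were flagged, where chance flags about 1 in 20. In BEP, CIITA was at 6.961 in animal A and at 6.209 to 6.31 in the others. In sham, IFI35 was at 9.475 in animal B and at 9.879 to 9.914 in the others. In H, ISG12(A) was at 11.217 in animal B and at 9.912 to 9.994 in the others. In HE, MX1 was at 8.736 in animal A and at 10.373 to 10.652 in the others. The mean interferon level was 8.279 in BP A and 8.876 to 8.908 in the other BP animals.

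The effect of estrogen differed between haloperidol and bromocriptine, by the interaction term, for IFIT2 (-1.14) and ISG20 (1.30). These were 2 of 41 genes (4.88%), where 7.48% of all probe sets were called. Of the 36 fits that left out 1 array, 17 lost the call of IFIT2 and 19 that of ISG20, and both were lost without BP A. The call of IFIT2 was also lost with the most variable of its 3 probe sets.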

How the results depend on the processing

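The number of genes called stayed within 1.5 times its value for most settings. Array weights gave 2 for B against sham, where 13.0% of all probe sets were called, 18 for the average effect of estrogen (45.8%) and 4 for the interaction of estrogen with haloperidol (11.5%). Leaving out BP A gave 19 for estrogen and 0 for that interaction (4.95%), leaving out BP A, B A and B B gave 17 and 0 (4.32%), and leaving out dim probe sets gave 1 for that interaction. The causes were not tested. With each array left out, counts ran from 0 to 1 for B against sham, 11 to 19 for estrogen, 0 to 0 for progesterone, 4 to 11 for haloperidol, 0 to 4 for estrogen with haloperidol, 0 to 1 for the interaction of estrogen with progesterone and 0 to 0 for that of progesterone with haloperidol. The share of all probe sets called is not given here for most of these fits. No called change reversed in any setting run. Single arrays were also left out of the contrasts within backgrounds, a choice made after seeing the data, and there the uncalled difference from B to BE turned sign in 1 fit each for IFIT2 (-0.082 to 0.0012, the latter without B B) and ISG20 (-0.059, without B A, to 0.21). The letters in the titles do not clearly pair animals (52 of 144 same-letter pairs of groups correlated above 0.1, 14 of 36 arrays best with their own letter). With the letter as a replicate block, 13 genes were called for estrogen, 9 for haloperidol and 2 for the interaction of estrogen with haloperidol. The shares of all probe sets called there are not given here.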

Other observations

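The 9 single-symbol probe sets for B2M disagreed. Their correlation with the probe set used here, over 36 arrays, ran from -0.44 to 0.59. One was lower with haloperidol (-2.56 ± 0.35 on the log2 scale, adjusted p = 1.84e-05) and resembled ALAS2, an enzyme that red cell precursors use to make heme, with an r of 0.96. Another rose with estrogen (0.79, adjusted p = 4.07e-05) and haloperidol (0.59, adjusted p = 0.00586) and resembled LRRC59 (r of 0.93). A further probe set fell with estrogen (-0.73, adjusted p = 1.9e-05) and resembled LIMS2 (r of 0.91). Over all members, 18 of 25 further probe sets had the sign of their representative for estrogen and 14 of 25 for haloperidol.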
